A study of Homo sapiens with 3 samples.

Results

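The 217 microRNA genes described here are those with a clear signal on whole-transcript microarrays of A549 cells, an established human lung cancer line. They were chosen by level alone: a gene named MIR with a number, or MIRLET7, was taken when its brightest probe set averaged at least 5 on the log2 scale over the 3 arrays of the series. Of 1072 microRNA genes named on the array, 217 (20.2%) passed and 855 did not. Their levels were therefore selected on these same arrays and are given as a description. The cells had been transfected with an siRNA against TAZ (siTAZ), an siRNA against YAP (siYAP) or a control siRNA (siNC), and total RNA was taken after 48 h. TAZ (gene WWTR1) and YAP (gene YAP1) are related transcriptional co-activators at the end of the Hippo pathway. All 3 groups are the same transfected line and were treated with the same transfection reagent, and each has 1 array. There was no replicate, so no value below carries an error or a p-value, and no difference could be set against the spread between cultures.

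A microRNA gene is transcribed into a long primary transcript, which the nuclear enzyme DROSHA and its partner DGCR8 cut to a hairpin. The cytoplasmic enzyme DICER1 then cuts the hairpin to a short duplex, and 1 strand of it guides an Argonaute protein to messenger RNAs, mostly through pairing of the seed, bases 2 to 8 of the mature strand. Many hairpins lie inside the introns of other genes and are made from the same transcript. YAP has been described to bind DDX17, a helper of the DROSHA complex. The arrays read cDNA copied from total RNA, so a value for a microRNA gene may come from the primary transcript, the hairpin or a host transcript, and which of these gave the signal was not tested.

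RefSeq sequences (GRCh38.p14) were found for 201 of the 217 genes, as a mature strand for 195 and as a hairpin for 187. The first set is shown because these genes carry some of the differences between arrays described further on. It does not hold every gene at 1.5-fold, and MIR21 in it is under 1.5-fold in each comparison. Each line is a mature strand written 5′ to 3′ with its seed in capitals.
miR-4454: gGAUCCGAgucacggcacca
miR-665: aCCAGGAGgcugaggccccu
miR-4529-3p: aUUGGACUgcugauggcccgu
miR-4267: uCCAGCUCgguggcac
miR-3198: gUGGAGUCcuggggaauggaga
miR-3928-3p: gGAGGAACcuuggagcuucggc
miR-4526: gCUGACAGcagggcuggccgcu
miR-1226-3p: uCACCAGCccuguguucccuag
miR-21-5p: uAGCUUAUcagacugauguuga
In GRCh38.p14 the miR-4454 strand lies at chr4:163093607-163093626 on the minus strand, the miR-665 strand at chr14:100875075-100875094 on the plus strand and the miR-21-5p strand at chr17:59841273-59841294 on the plus strand.

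The second set is the let-7 family, shown because it was the largest group with a shared seed. The 195 genes with mature sequences gave 285 strands and 268 distinct seeds, and 12 seeds were shared by at least 2 genes, 25 genes in all. The seed GAGGUAG joined 5 genes.
let-7a-5p: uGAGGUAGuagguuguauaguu
let-7d-5p: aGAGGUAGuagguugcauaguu
let-7e-5p: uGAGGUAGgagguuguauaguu
let-7i-5p: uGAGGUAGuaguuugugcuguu
miR-98-5p: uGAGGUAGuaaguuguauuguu

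The microRNA genes at the floor were dim beside other genes. Their median level was 5.81, against 6.67 for the 8457 other named genes at the same floor and 3.24 for all 1072 microRNA genes. Of the 217, 91 reached 6, 28 reached 7 and 7 reached 8, whereas 488 microRNA genes averaged under 3. Of the 217, 137 (63.1%) carry a number of 1000 or more, a mark of a gene named late in the catalogue, against 408 of the 855 dimmer ones (47.7%). All but 12 of them read at least 5 on each array, and those 12 were under 5 on 1 or 2 arrays. Of all 1072 genes 216 were at 5 or more in siTAZ cells, 214 in siYAP cells and 219 in siNC cells.

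MIR4737 was the brightest, at 10.06 in siTAZ, 10.25 in siYAP and 10.40 in siNC cells. MIR622 followed at 8.89 in siTAZ, 9.17 in siYAP and 9.18 in siNC cells. MIR2909 was at 8.84 in siTAZ, 8.60 in siYAP and 9.16 in siNC cells. All 3 were lower in both knockdown arrays than in siNC, by 0.56 or less. MIR574 was at 8.52 in siTAZ and 8.61 in both siYAP and siNC cells, and MIR3619 at 8.27 in siTAZ, 8.31 in siYAP and 8.72 in siNC cells. The remaining 5 of the 10 brightest were MIR663B, MIR3907, MIR4673, MIR4732 and MIR4442, with levels between 7.80 and 8.51 on all arrays, and MIR4442 held the same value, 7.80, on each. At the edge of the choice, MIR378E (5.03), MIR541 (5.02), MIR1286 (5.02), MIR4534 (5.01) and MIR124-2 (5.01) were just inside, and MIR147A (4.995), MIR4314 (4.99), MIR1249 (4.99), MIR1911 (4.99) and MIR548V (4.99) just outside.

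The bright genes tended to have hairpins rich in G and C, which the choice did not use. The hairpins are shown for the 3 brightest genes that have one in RefSeq and for 3 of the dimmest, 5′ to 3′, with every G and C in capitals.
MIR4737: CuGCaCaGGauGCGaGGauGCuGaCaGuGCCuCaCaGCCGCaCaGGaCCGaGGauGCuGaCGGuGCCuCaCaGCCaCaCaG
MIR2909: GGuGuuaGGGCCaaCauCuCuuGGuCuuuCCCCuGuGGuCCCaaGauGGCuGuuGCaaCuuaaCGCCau
MIR574: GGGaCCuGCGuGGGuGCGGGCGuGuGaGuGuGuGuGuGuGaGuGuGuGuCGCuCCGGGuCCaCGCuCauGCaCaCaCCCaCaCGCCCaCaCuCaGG
MIR4699: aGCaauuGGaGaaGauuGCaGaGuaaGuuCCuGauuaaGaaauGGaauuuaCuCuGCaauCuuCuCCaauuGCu
MIR1297: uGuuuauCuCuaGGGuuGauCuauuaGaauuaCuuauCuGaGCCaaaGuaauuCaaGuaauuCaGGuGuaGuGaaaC
MIR562: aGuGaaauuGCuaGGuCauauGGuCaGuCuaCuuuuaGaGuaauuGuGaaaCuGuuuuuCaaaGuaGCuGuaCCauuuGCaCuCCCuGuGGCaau
G and C made up 63.0% of the MIR4737 hairpin, 52.2% of MIR2909 and 65.6% of MIR574. In the dim hairpins the share was 36.5% for MIR4699, 32.5% for MIR1297 and 37.9% for MIR562.

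Over the 187 bright genes with a hairpin the median G and C share was 60.6%, against 45.4% over 697 dimmer ones, while the median hairpin lengths were close, at 80 and 84 bases. The share passed 60% in 98 bright genes (52.4%) and in 51 dimmer ones (7.32%). Read the other way, 3 of 173 hairpins under 40% G and C were bright (1.73%), 20 of 308 between 40% and 50% (6.49%), 64 of 249 between 50% and 60% (25.7%) and 100 of 154 at 60% or more (64.9%). The median level climbed over these bins, at 1.98, 2.68, 4.15 and 5.55. The tendency had exceptions, such as MIR4521 (41.7% G and C), MIR3143 (41.3%) and MIR570 (37.1%), with levels of 7.62, 7.41 and 7.10. Across the 884 microRNA genes with a hairpin, level and G and C share had a Pearson correlation of 0.69 and a Spearman correlation of 0.71, and level and hairpin length a Spearman correlation of -0.012. Within the 187 bright genes the Spearman correlation with G and C share was 0.32. These are correlations across genes that share the same 3 arrays, and probe and hairpin composition cannot be told apart here. Whether the levels follow the amount of RNA was not tested.

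**Figure D1:**
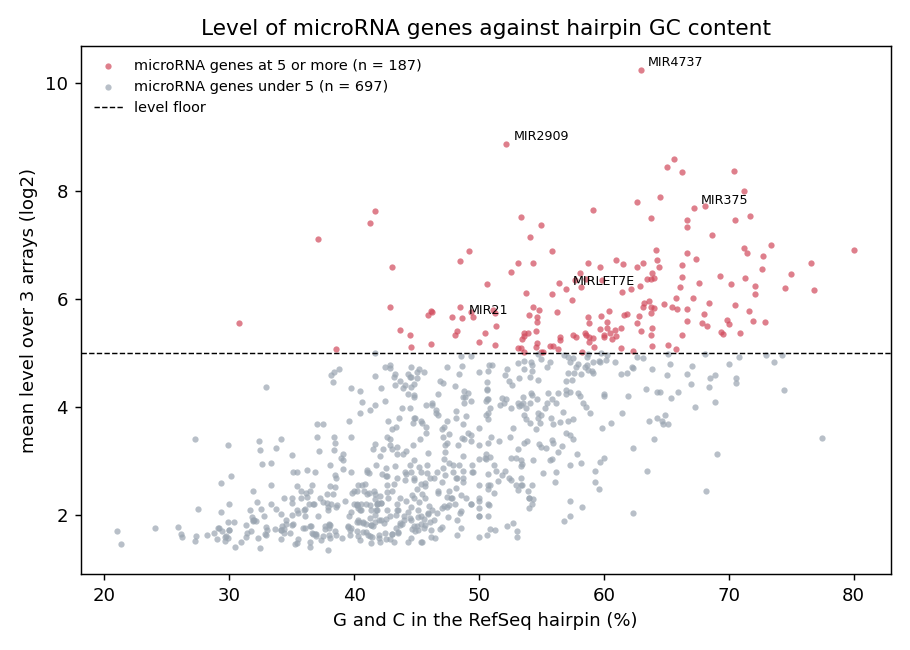
Mean level over the 3 arrays (log2, vertical axis) against the share of G and C in the RefSeq hairpin (percent, horizontal axis), 1 point per microRNA gene, with genes at a level of 5 or more set apart by colour from those under 5. Bright genes gather at the right, with a median G and C share of 60.6% against 45.4% for the rest.

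Among 7 well known families 7 of 42 named genes were at 5 or more (16.7%), beside 20.2% of all microRNA genes, and 5 of those 7 belong to let-7. Of the let-7 family, which represses growth-promoting messages and is itself held down by LIN28 proteins, 5 of 11 named genes were at 5 or more (45.5%). MIRLET7E held 6.19 on all 3 arrays, and MIRLET7I 5.36 on all 3. MIRLET7D was at 5.24 in siTAZ, 5.26 in siYAP and 5.70 in siNC cells, MIR98 at 5.66 in siTAZ, 5.92 in siYAP and 5.96 in siNC cells, and MIRLET7A3 at 5.67 in siTAZ and 5.72 in both siYAP and siNC cells. Thus 3 of the 5 were lower in siTAZ than siNC cells and none was higher, beside 39.6% lower and 16.6% higher over the 217. The largest difference of the 5, -0.46 for MIRLET7D, was under 1.5-fold. The family's genes under the floor went both ways and are given at the end.

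Of the clusters of the miR-17 family, which promote cell-cycle entry, 1 of 9 named genes was bright, MIR106B, at an identical 5.31 on each array. The miR-30 family had 1 of 6, MIR30E, at 5.80 in siTAZ, 5.81 in siYAP and 5.80 in siNC cells, and none of the miR-200 family (5 named), the miR-34 family (3), the miR-29 family (4) or the miR-130 and miR-301 family (4) reached 5. Of 19 named microRNAs often described in lung cancer lines, 3 were bright (15.8%). MIR210, which rises in low oxygen, was at 6.79 on all 3 arrays. MIR24-2 was at 5.79 in siTAZ, 5.81 in siYAP and 5.79 in siNC cells. MIR21, often abundant in tumours, was at 5.46 in siTAZ, 5.56 in siYAP and 5.93 in siNC cells, and so was lower in both knockdown arrays, by 0.47 and 0.37.

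Of 30 named microRNAs best known from other cell types, 3 (10%) were at 5 or more, a smaller share than the 20.2% of all microRNA genes. MIR375, known from endocrine cells, was at 7.67 in siTAZ, 7.70 in siYAP and 7.67 in siNC cells. MIR150, known from lymphocytes, averaged 5.25, and MIR124-2, known from neurons, was at 5.02 in siTAZ, 5.02 in siYAP and 4.98 in siNC cells. Of 11 listed epithelial markers 4 were named on the array, and all 4 were at 5 or more. KRT18, an epithelial keratin, was at 11.38 in siTAZ and 11.56 in both siYAP and siNC cells. The others were dimmer, with means of 8.18 for EPCAM, 6.52 for KRT8 and 6.44 for KRT19. Of the markers of other cells, 1 of 2 named leukocyte genes, 2 of 3 fibroblast genes and 0 of 3 endothelial genes reached 5, beside 61.2% of all named genes other than microRNA genes. CD68, a macrophage gene, was at 9.001 in siTAZ, 9.02 in siYAP and 8.43 in siNC cells, and LUM, a fibroblast matrix gene, at 8.14 in siTAZ, 8.10 in siYAP and 7.45 in siNC cells. The other named markers of these cells were mixed. THY1 was 0.16 lower than siNC in both knockdown arrays, and DCN was identical on all 3 arrays. CD14 was identical to siNC in siTAZ and 0.06 higher in siYAP. Of the endothelial genes, PECAM1 (mean 3.76) was 0.30 higher than siNC in siTAZ and 0.21 higher in siYAP. VWF and KDR were identical on all 3 arrays. Their part in the microRNA values was not tested.

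**Figure D2:**
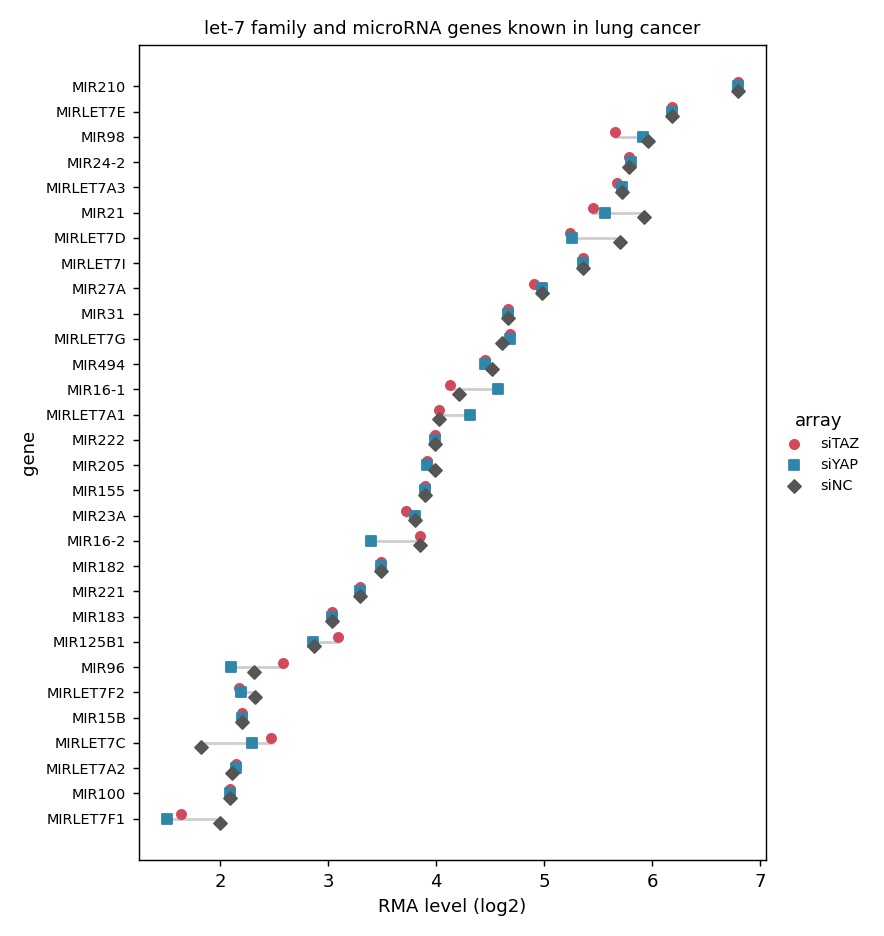
Levels (log2, horizontal axis) of all named genes of the let-7 family and of the lung cancer microRNAs, 1 row per gene and 1 point for each of the siTAZ, siYAP and siNC arrays, in order of mean level. The 8 rows at the top average 5 or more, from MIR210 at 6.79 to MIRLET7I at 5.36, and MIR21 and MIRLET7D sit lower in both knockdown arrays than in siNC.

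The siRNA targets serve as the check of the labels. WWTR1 was at 5.81 in siTAZ and at 6.50 in both siYAP and siNC cells. YAP1 was at 8.24 in siTAZ, 6.87 in siYAP and 8.45 in siNC cells. Each target was thus lowest in its own array, and the median over all 53617 probe sets was 4.26 in siTAZ, 4.27 in siYAP and 4.28 in siNC cells.

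Many microRNA genes held exactly the same value on several arrays. This was so on all 3 arrays for 77 of the 217 (35.5%), close to the 36.4% of other named genes at the floor. A further 18 (8.29%) were identical in siTAZ and siYAP and apart from siNC, 18 (8.29%) in siTAZ and siNC, and 28 (12.9%) in siYAP and siNC, leaving 76 (35.0%) with 3 different values. Among other named genes at the floor these shares were 13.2%, 7.34%, 10.2% and 32.8%, in the same order. Of the 18 identical in siTAZ and siYAP, 12 were lower and 6 higher than in siNC. For other genes with that pattern the balance was the reverse, with 428 lower and 692 higher. Equal values also tie genes to each other: 15 of the 217 shared all 3 values with another member, as MIR500A and MIR500B did at 5.13, but also unrelated genes such as MIR26B and MIR4516 at 6.08, and MIRLET7I with MIR2467 and MIR3620 at 5.36. All 15 held 1 value on all 3 arrays, and the cause was not tested.

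**Figure D3:**
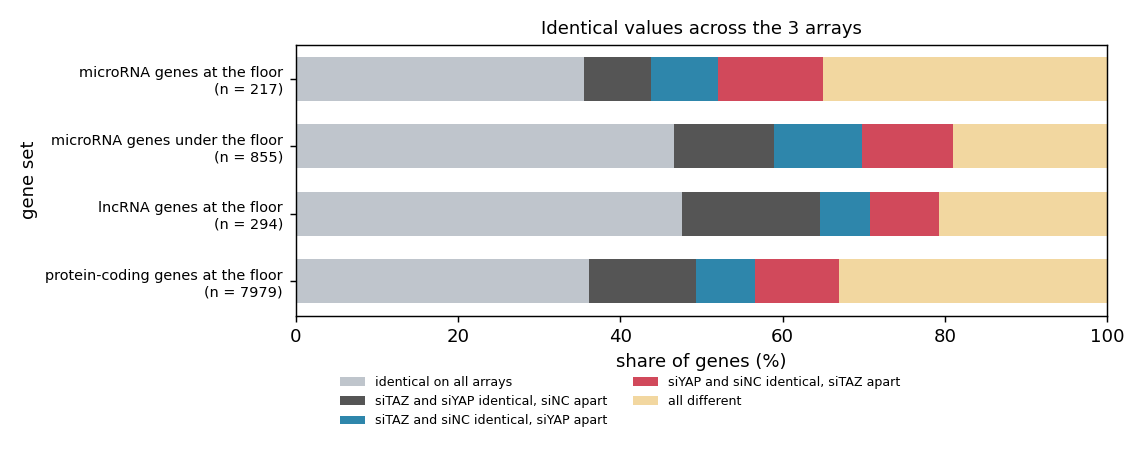
Share of genes (percent, horizontal axis) by which of the 3 arrays held identical values, 1 stacked bar for each group of genes. Identity on all 3 arrays was found for 35.5% of the microRNA genes at 5 or more, 46.7% of those under 5, 47.6% of long noncoding RNA genes at 5 or more and 36.1% of protein-coding genes at 5 or more.

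The first comparison asked which microRNA genes differed after TAZ knockdown. Most did not move far: the median difference of siTAZ from siNC was 0, 95 of 217 were identical and 142 (65.4%) lay within 0.1. At 1.5-fold, 5 were lower (2.30%) and 1 was higher (0.461%), beside backgrounds of 1.22% lower and 0.853% higher over all 8674 named genes at the floor. At 2-fold, 1 was lower (0.461%) and 0 were higher, beside 0.3% and 0.0922%. These counts are small, so that 1 gene moves each share by 0.461 percentage points.

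The deepest difference was in MIR4454, whose mature sequence heads the first set above. It stood at 5.47 in siTAZ, 5.47 in siYAP and 6.47 in siNC cells. The siNC array was thus the high one, and both knockdown arrays lay 1.002 below it, 49.9% of the siNC level in siTAZ cells. Its 3 probe sets carried a single profile and are no independent measurements. It ranked 26 from the lowest in siTAZ and 11 in siYAP cells among the 8674 genes, and at 2.003-fold in siTAZ and 2.003-fold in siYAP it only just passed 2-fold.

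MIR4529 was at 4.71 in siTAZ, 5.17 in siYAP and 5.56 in siNC cells, 1.80-fold lower in siTAZ. MIR665, which lies in an imprinted microRNA cluster of chromosome 14, was at 4.93 in both siTAZ and siYAP and at 5.56 in siNC cells, 1.55-fold lower in both. MIR3198-1 was at 5.38 in siTAZ, 5.88 in siYAP and 6.01 in siNC cells, 1.54-fold lower in siTAZ, and MIR3928 at 5.40 in siTAZ, 5.85 in siYAP and 5.997 in siNC cells, 1.52-fold lower. In those last 2 genes and in MIR4529 the siYAP value lay between the others, whereas in MIR665 it equalled the siTAZ value. The 1 gene higher in siTAZ was MIR4267, at 5.61 in siTAZ, 4.88 in siYAP and 4.91 in siNC cells, 1.63-fold higher. Its other probe set read 5.07 in siTAZ, 5.14 in siYAP and 5.03 in siNC cells, a difference of 0.05, so the call rests on 1 of 2 probe sets.

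The siYAP array gave a like number of differences. Against siNC the median was again 0, 105 genes were identical and 152 (70.0%) lay within 0.1. At 1.5-fold, 5 were lower (2.30%) and 1 was higher (0.461%), beside backgrounds of 0.45% and 0.565%. At 2-fold, 1 was lower (0.461%) and 0 were higher, beside 0.138% and 0.0922%. The 5 were MIR4454, MIR665, MIR4526, MIR1226 and MIR4304, the first 2 of which were also lower at 1.5-fold in siTAZ. A gene past the line in 1 knockdown could lie not far short of it in the other: MIR4529 was 0.39 lower than siNC in siYAP, and MIR4304 0.39 lower in siTAZ. Both comparisons use the same siNC array, so their likeness is not read as a result.

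MIR4526 was at 5.68 in siTAZ, 5.21 in siYAP and 5.92 in siNC cells, 1.64-fold lower in siYAP. MIR1226, a mirtron whose hairpin is a short spliced intron, was at 5.97 in siTAZ, 5.46 in siYAP and 6.08 in siNC cells, 1.53-fold lower. MIR4304 was at 6.52 in siTAZ, 6.33 in siYAP and 6.91 in siNC cells, 0.59 lower in siYAP and only just past 1.5-fold. In all 3 the siYAP array was the lowest and siNC the highest. MIR4640 was the 1 higher gene, at 6.47 in siTAZ, 6.96 in siYAP and 6.34 in siNC cells, 1.53-fold higher in siYAP, with 5 probe sets that carried 1 profile.

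Set against each other, siYAP and siTAZ cells gave 3 genes lower in siYAP at 1.5-fold (1.38%) and 1 higher (0.461%), beside backgrounds of 0.196% and 0.68%, and 0 genes at 2-fold in either direction, beside 0.0346% and 0.0807%. The lower ones were MIR4267 (1.66-fold), MIR3135A (1.62-fold) and MIR3159 (1.51-fold). MIR3135A was at 5.64 in siTAZ, 4.94 in siYAP and 5.16 in siNC cells, and MIR3159 at 7.12 in siTAZ, 6.52 in siYAP and 6.77 in siNC cells. In both, the siNC value lay between the knockdowns. The higher one was MIR3691, at 4.99 in siTAZ, 5.58 in siYAP and 5.32 in siNC cells. Its difference of 0.59 only just passed 1.5-fold and no longer did, at 0.58, after a new quantile normalization. In all, 13 of the 217 (5.99%) reached 1.5-fold in at least 1 of the 3 comparisons, beside 228 of all 8674 named genes at the floor (2.63%). Of the 13, only MIR3159, MIR4640 and MIR4304 averaged 6 or more. The 217 are dimmer than other genes at the floor (median 5.81 against 6.67), and these shares were not matched by level. The median range over the 3 arrays was 0.072, against 0.046 for other genes at the floor, and 17 genes (7.83%) had a range over 0.5, against 331 of the other genes (3.91%).

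**Figure D4:**
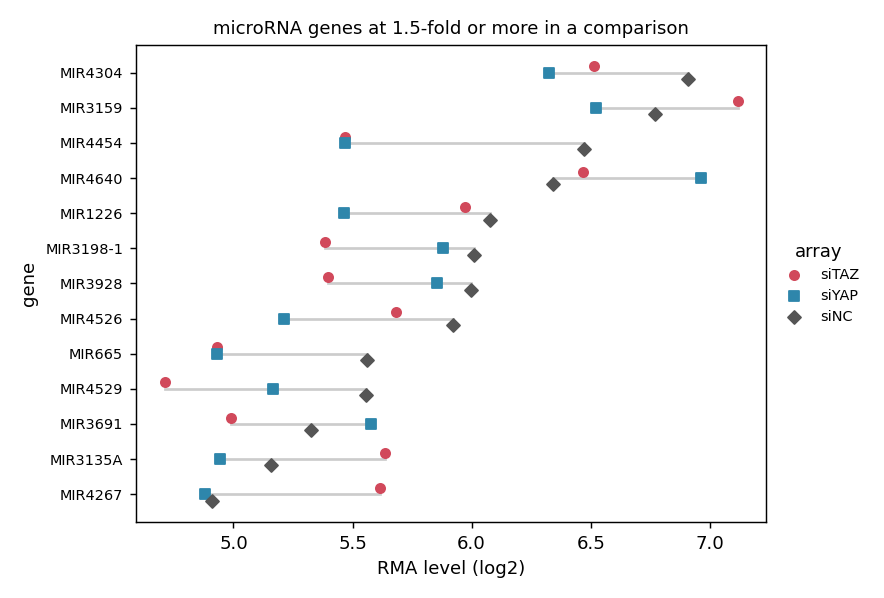
Levels (log2, horizontal axis) of the 13 microRNA genes at 1.5-fold or more in any comparison, 1 row per gene and 1 point for each of the siTAZ, siYAP and siNC arrays. MIR4454 and MIR665 have knockdown points that lie together, 1.002 and 0.63 below siNC, and MIR4267 stands apart in siTAZ alone.

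Small differences leaned to one side. Among genes whose value was not identical, 86 were lower and 36 higher in siTAZ than in siNC cells (70.5% lower), and 78 were lower and 34 higher in siYAP (69.6% lower). Among other genes at the floor the shares lower were 39.6% and 42.6%, and among the 855 dimmer microRNA genes 51.2% and 57.2%. The lean was present in each band of level: 75% in siTAZ and 68.3% in siYAP between 5 and 6, 64.9% and 76.7% between 6 and 7, and 66.7% and 63.6% at 7 or more, beside 48.2% and 49.5%, 35.8% and 38.3%, and 38.4% and 42.3% for other genes in the same bands. Both splits use the same siNC array, so their likeness is not read as a result. The split and the genes it counts depended on the scaling of the arrays and on the reference. Rescaling gave a sign to genes whose deposited values were identical, which the shares above leave out. After a new quantile normalization 118 were lower and 86 higher in siTAZ (57.8% lower, against 49.9% of other genes), and 131 were lower and 73 higher in siYAP (64.2%, against 58.4%). After removal of a loess trend, which left no gene identical, the shares were 69.1% and 63.6%, against 58.6% and 56.4% of other genes. These shares cover more genes than the 70.5% and 69.6% above, and how the differing genes alone moved was not computed. Between siYAP and siTAZ cells 54 were lower and 68 higher (44.3% lower). The share lower was 60.1% after the new quantile normalization and 53.5% after the loess step. Both of these shares also sign genes whose deposited siYAP and siTAZ values were identical. They therefore cannot show whether the genes that differed changed direction.

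The genes most like MIR4454 over these arrays were found by the sum of the absolute gaps in both differences from siNC, over all named genes at the floor. In order they were POMK, a kinase of protein O-mannose (gap 0.057), MMD (0.077), FBXW10, an F-box protein (0.081), PARD6B, a cell polarity protein (0.10), IL11, a cytokine (0.11) and ADGRG6, an adhesion receptor (0.21). POMK was at 7.53 in siTAZ, 7.48 in siYAP and 8.48 in siNC cells. The likeness is over 3 arrays, of which siNC enters both differences.

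A gene with several probe sets could read differently from each. Of the 217 genes 36 had more than 1 probe set, of which 7 carried a single profile and 29 different ones, and in 8 the brightest and dimmest lay more than 1 apart in level. MIR4521 read 7.62 on its brightest and 1.85 on its dimmest, and MIR2909 8.87 and 3.97. In 3 genes, MIR3147, MIR3160-1 and MIR4267, the probe sets disagreed by more than 0.5 in a difference from siNC. The dimmer MIR3147 probe set was at 5.85 in siTAZ, 5.36 in siYAP and 5.03 in siNC cells, a difference of 0.82 in siTAZ that the brightest, at 0.14, did not show.

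Genes that lie close together on a strand did not move together in every case. Within 10000 bases there were 8 such groups with 21 of the 217 genes. MIR665 was 0.63 lower in both knockdown arrays while its neighbours MIR431 and MIR127 were identical on all 3. MIR99B and MIRLET7E, also neighbours, were both identical on all 3. Genes with a shared seed also differed by unlike amounts in some groups. With the seed AGGGAGG, MIR4756 was 0.35 lower in siTAZ than in siNC cells and MIR1321 was identical, and the let-7 genes ranged from 0 to 0.46 lower. In other groups all were close to siNC, as with ACAUUCA, where MIR181C, MIR181D and MIR4262 differed by at most 0.08.

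Many bright microRNA genes lie in another gene, whose own probe sets give a second reading of the same locus. Of the 217, 114 lay within a gene on the same strand in GRCh38.p14, and 66 of these pairs had a named host on the array. Whether the hairpin lies in an exon or an intron of the host was not looked up here. The microRNA gene was brighter in 34 pairs and its host in 32, with median levels of 5.80 and 6.17, and the levels had a Spearman correlation of 0.17 over the 66 pairs. In siTAZ against siNC cells 7 pairs moved the same way, 8 opposite ways, 16 had both members identical, 23 had a microRNA gene that differed beside an identical host, and 12 the reverse. In siYAP the numbers were 6, 7, 15, 24 and 14. Between siYAP and siTAZ cells 9 pairs moved the same way and 3 opposite ways, 20 had both members identical, 28 an identical host alone and 6 an identical microRNA gene alone. Levels of different probe sets do not compare in amount, so only the differences bear on the pairs.

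MIR21 was 0.47 lower in siTAZ and 0.37 lower in siYAP than in siNC cells, whereas VMP1, its host with a role in autophagy, was 0.02 lower in both at a level of 11.34. MIR3198-1 was 0.62 lower in siTAZ while its host BID, a pro-apoptotic gene, was identical on all arrays at 7.66, and MIR1226 was 0.61 lower in siYAP while DHX30, an RNA helicase, was identical at 6.61. MIR4640 was 0.62 higher in siYAP and DDR1, a collagen receptor, 0.02 lower. MIR3691 was 0.59 higher in siYAP than in siTAZ cells, and LYRM4, needed for iron-sulphur cluster assembly, 0.16 lower, at a dim mean level of 4.84. In each of the 4 pairs whose microRNA gene passed 1.5-fold, the host differed by 0.16 or less. Most genes differ as little. Of all 8674 named genes at the floor, 68.6% lay within 0.1 in siTAZ against siNC cells. The share was 73.9% in siYAP against siNC and 78.4% in siYAP against siTAZ cells. The small host differences are therefore not read as a result. Of the bright pairs, MIR2909 was 0.32 lower in siTAZ and 0.56 lower in siYAP than in siNC cells, and its host AATF 0.07 and 0.10 higher. MIR4673 was 0.25 lower in both, while NOTCH1, a receptor of cell-to-cell signalling, was 0.12 lower in siTAZ and identical to siNC in siYAP. In siTAZ the pair whose same-sign differences had the largest sum was MIR3189, in GDF15, a secreted stress factor. MIR3189 was 0.24 higher in siTAZ and 0.16 higher in siYAP, and GDF15 0.79 and 0.25 higher. In siYAP, MIR4747 and its host UHRF1, a reader of DNA methylation, also differed the same way, 0.24 and 0.17 lower than siNC.

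**Figure D5:**
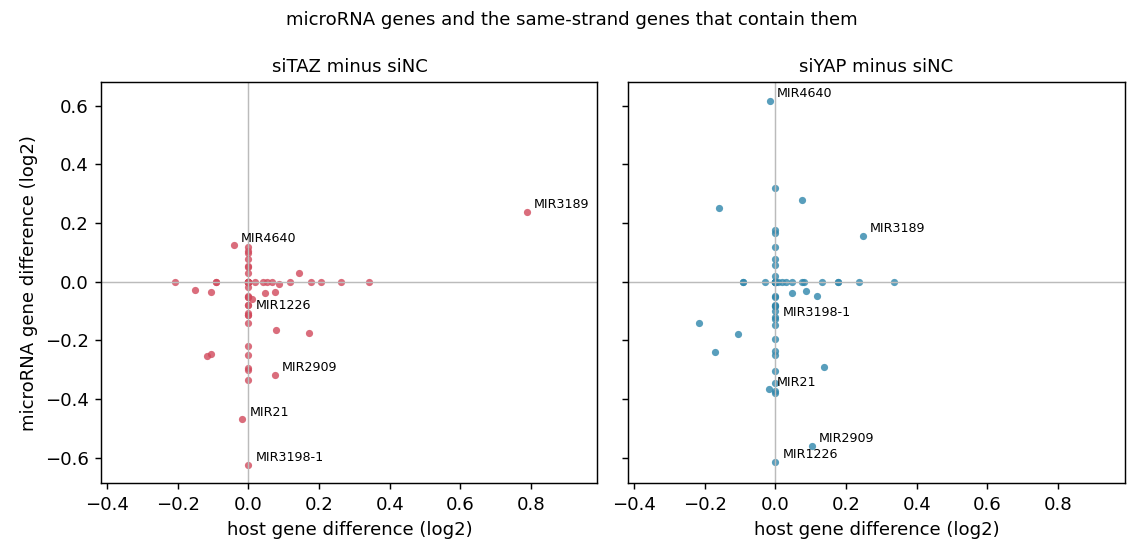
Difference from siNC (log2) of the microRNA gene (vertical axis) against that of its host gene (horizontal axis), 1 point per pair for the 66 pairs, in 1 panel for siTAZ and 1 for siYAP. Most points lie on or near an axis, as for MIR21 with VMP1, and MIR3189 with GDF15 is the pair whose same-sign differences have the largest sum in siTAZ.

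The machinery that makes and uses microRNAs was read in part. Of 26 listed genes 13 were named on the array and 12 were at 5 or more, and DROSHA, DICER1 and the AGO genes were not among those named. Of the 12, 4 were lower, 4 higher and 4 identical in siTAZ against siNC cells, and 5 lower, 4 higher and 3 identical in siYAP, with a median of 0 in both. KHSRP, which binds some microRNA precursors and promotes their processing, was the 1 gene of the 12 at 1.5-fold. It was at 7.55 in siTAZ, 7.50 in siYAP and 6.88 in siNC cells, higher by 0.67 and 0.62. Of all named genes at the floor 0.853% were 1.5-fold higher in siTAZ and 0.565% in siYAP. TNRC6C, a partner of the Argonaute proteins, was at 6.28 in siTAZ, 5.97 in siYAP and 5.79 in siNC cells, the next largest siTAZ difference at 0.49. LIN28B, which blocks let-7 maturation, was at 5.35 in siTAZ, 5.68 in siYAP and 5.83 in siNC cells. TNRC6A, of the same family as TNRC6C, was at 7.54 in siTAZ, 7.19 in siYAP and 7.61 in siNC cells. DGCR8 (6.02), TARBP2 (6.15) and the helicase gene DDX5 (10.47) were identical on all 3 arrays. DDX17 was at 8.98 in both siTAZ and siYAP and 9.01 in siNC cells, 0.03 lower in both knockdown arrays.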

How the data were processed

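Total RNA (500 ng) of 3 cultures, 1 array each, was labelled as cDNA for Affymetrix whole-transcript arrays, per the labels' protocols. The authors deposited RMA values, per the submitters' processing notes. The range of the deposited values, 0.96 to 13.5, was taken as log2, since no label states the scale. Neither the RMA version nor the array's genome build is given in the sources. Quantile normalization makes each value relative to its array. Depth does not apply, and the number of arrays limits the precision.

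Of 53617 probe sets 16098 had 1 gene symbol. The brightest probe set stood for its gene. Values equal within 1e-09 counted as identical. Differences were computed in Python 3.11.15 with pandas 2.3.3, and the loess trend with statsmodels 0.14.6 at a span of 0.4. The scripts were tested on simulated data. With 1 array per group no test was run. Alternatives changed the floor, the probe set rule, the scaling and the reference array.

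The members and lists were chosen with earlier results of these data known. Genes were named by rule: MIR4454, the 10 brightest, the 5 on each side of the floor, every member at 1.5-fold, list members, hosts of named members and the 6 genes most like MIR4454. Other genes given as examples, such as MIR4521, MIR3143, MIR3147, MIR500A, MIR181C, MIR4756, UHRF1 and GDF15, were picked after their values were seen.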

Additional observations from a re-analysis of the deposited data

How the results depend on the processing

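No paired analysis was possible because each group has 1 array, and for the same reason no array could be left out. With no floor on level the counts cover all 1072 microRNA genes, not the 217. Of these, 17 were 1.5-fold lower, 8 1.5-fold higher and 1 2-fold higher in siTAZ than siNC cells. In siYAP against siNC cells 16 were 1.5-fold lower, 7 1.5-fold higher and 3 2-fold lower. In siYAP against siTAZ cells 12 were 1.5-fold lower, 9 1.5-fold higher and 2 2-fold lower. A floor of 4.5 kept 320 genes and gave 2 at 1.5-fold higher in siTAZ than siNC and 2 in siYAP than siTAZ cells. A floor of 6 kept 91 genes, with 0 at 1.5-fold lower, higher or 2-fold lower in siTAZ. In siYAP 1 was 1.5-fold lower and 0 were 2-fold lower, and in siYAP against siTAZ cells 1 was lower and 0 higher. No share over all named genes is given for these other floors, so their counts are not compared with those above. The mean over probe sets left 0 higher in siTAZ, with MIR4267 at 0.38 there and at -0.33 in siYAP against siTAZ. A new quantile normalization left 0 higher in siYAP than siTAZ cells, as MIR3691 came to 0.58.

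When the mean of siNC and the other knockdown was the reference, 1 gene was 1.5-fold lower, 2 higher and 0 2-fold lower in siTAZ, and 1 lower, 0 higher and 0 2-fold lower in siYAP. MIR4454 was then at -0.50 in both, MIR665 at -0.32 in both, and MIR4529 at -0.65 in siTAZ. By its construction that reference shrinks a difference shared by both knockdowns. Of 76 recomputed values of named genes, 30 are exact copies that their alternative could not move (a median shift of 0, or genes with 1 probe set or 1 profile). Of the other 46, 37 stayed within 0.1, 9 moved and 0 changed sign. Leaving out the genes identical in siTAZ and siYAP and apart from siNC, an alternative chosen after seeing the data, gave 4 genes 1.5-fold lower in siTAZ and 4 in siYAP. MIR4454 is not among those left out, since its knockdown values differ slightly.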

Other observations

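Of the 855 microRNA genes under the floor, 12 were 1.5-fold lower (1.40%) and 7 higher (0.819%) in siTAZ than in siNC cells, near the 1.22% and 0.853% of all named genes at the floor. In siYAP 11 were lower (1.29%) and 6 higher (0.702%), beside 0.45% and 0.565%. In the let-7 family the named genes under the floor were MIRLET7G (4.66), MIRLET7A1 (4.12), MIRLET7F2 (2.23), MIRLET7C (2.20), MIRLET7A2 (2.14) and MIRLET7F1 (1.71). In siTAZ against siNC cells MIRLET7C was 0.65 higher (1.57-fold), MIRLET7G 0.07 higher and MIRLET7A2 0.04 higher. MIRLET7F1 was 0.36 lower, MIRLET7F2 0.14 lower and MIRLET7A1 identical.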
